A study of Arabidopsis thaliana with 12 samples.

Results

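Young were compared with old rosette leaves of Arabidopsis thaliana that had both been sprayed with abscisic acid (ABA), the hormone that plants make under drought and salt stress. The comparison was chosen by sample label: 3 libraries from ABA-treated leaf 12 (L12, called young) were set against 3 from ABA-treated leaf 7 (L7, called old), which are 6 of the 12 libraries in the series. All plants were wild-type accession Col-0, 4 to 5 weeks old. The ABA group received a spray of 500 µM ABA in 0.5% ethanol with the detergent Tween20, the mock group the same solution without ABA, and leaves were harvested 48 h later. Each of the 4 groups (ABA L12, ABA L7, mock L12, mock L7) held 3 libraries, numbered 1 to 3 for the repeat of the experiment. Leaf number counts leaves in their order of appearance, so leaf age and position on the rosette cannot be told apart, and the labels call both leaves fully expanded. How many plants were pooled in a sample was not given in the sources used here, so p-values measure the spread between these libraries.

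As a rosette leaf grows, cell division stops first at its tip and last at its base, and single epidermal cells go on dividing for some time to form stomata. Later the leaf exports sugar and, as it ages, breaks down chlorophyll and returns nutrients to the plant. ABA is sensed by receptors of the PYR/PYL family, which inhibit PP2C phosphatases and so release SnRK2 kinases. These kinases activate AREB/ABF factors, which bind ABA responsive elements in promoters and turn on genes for protective proteins and for NAC factors of the SNAC-A group. Salicylic acid (SA) is the main hormone of defense against biotrophic pathogens, and the question of the series is how ABA and SA signalling interact in leaves of different age.

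Counts on genes summed to between 17245639 and 18016974 per library in ABA-treated young leaves, and to between 13403451 and 19399559 in ABA-treated old leaves. Values below are CPM, counts scaled to the same library total, after TMM scaling (a factor per library that assumes most genes do not differ), and a log2 fold change is young over old. A gene counts as called when its adjusted p (Benjamini-Hochberg) is below 0.01 and its log2 fold change beyond 1, in edgeR's quasi-likelihood test on all 12 libraries with the replicate number as a block. The first principal component of the 6 ABA-treated libraries held 67.5% of their variance and separated the 2 ages. Tissue markers were those of leaves, and the mesophyll, meristem, flower and root sets given here do not tell L7 from L12. Guard cell, epidermis and phloem markers are given further below. The mesophyll markers LHCB1.3, RBCS1A and RCA summed to between 29063 and 37559 CPM in young leaves, against 27139 to 44521 CPM in old leaves. The shoot meristem markers STM, WUS, CLV3 and KNAT1 had 1 count in all in young leaves and 8 in old leaves, and the flower markers AP3, PI and AG had 22 and 19. Of the root markers, PYK10 lay between 1.52 and 1.95 CPM in young leaves, and between 1.52 and 1.87 CPM in old leaves, while COBL9 and EXPA7 had no count in these 6 libraries.

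Of 18291 genes tested, 573 (3.13%) were called higher and 673 (3.68%) lower in ABA-treated young than in ABA-treated old leaves, together 6.81%. All 1246 called genes changed in the same direction in all 3 same-numbered pairs. Young and old libraries did not overlap in 1201 of the 1246. Non-overlap was also common over all tested genes, with 4489 higher and 4350 lower in young leaves. The median log2 fold change of all tested genes was -0.04, with 8890 values positive and 9401 negative. Of the 1246, 503 passed 2 on the log2 scale and 166 passed 3. The smallest adjusted p in edgeR's test was 2.06e-04. Before adjustment 8871 genes (48.5%) lay below 0.05. Leaving out any single ABA-treated library left between 7 and 151 genes called higher and between 3 and 278 called lower, and leaving out replicate 1 or replicate 3 from all groups left none. Without the replicate block 6 genes were called higher and 6 lower. With DESeq2's size factors in place of TMM the split was 724 higher and 549 lower.

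The calls followed transcript length. Of tested genes whose longest annotated transcript has 3000 nucleotides or more, 11.3% were called higher and 0.182% lower in young leaves, whereas below 1000 nucleotides 0.759% were called higher and 9.36% lower. The median length was 2814.5 nucleotides among genes called higher, 1199 among genes called lower and 1758 among all tested genes. Across 18179 genes with a length, Spearman's rho between length and the log2 fold change was 0.569, and it was 0.436, 0.510 and 0.598 in the 3 replicate pairs taken singly. The count-weighted geometric mean length of the transcripts read was 1658, 1703 and 1593 nucleotides in the young libraries, against 1529, 1492 and 1331 nucleotides in the old libraries, which do not overlap. The part of this shift in the results that follow was not tested. With a correction for length and GC content together in each library, called the length correction below, 265 genes were called higher and 378 lower, 496 of them shared with the uncorrected calls. Both were corrected at once, so a call lost or gained cannot be assigned to length rather than GC content. Of the 12 largest increases described below 9 were still called with this correction, all but AT5G45520, POK2 and KINESIN-12B, and of the 12 largest decreases 9, all but LSU1, AT2G41810 and AT3G21710.

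**Figure D1:**
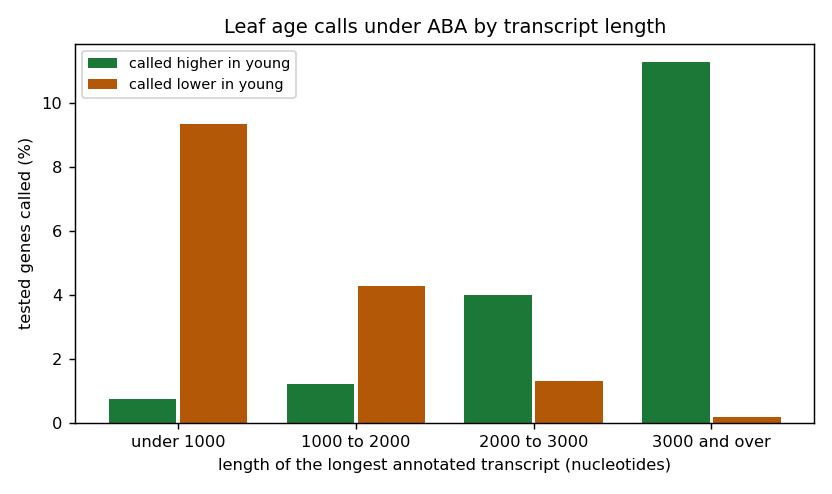
Share of tested genes (%) called higher (left bar) or lower (right bar) in ABA-treated young than in ABA-treated old leaves, by length of the longest annotated transcript. The share called higher is 0.759% below 1000 nucleotides and 11.3% from 3000 nucleotides up, while the share called lower is 9.36% and 0.182%.

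Genes of the stomatal lineage, the epidermal cells that divide to form stomata, had the highest median of the lists in young leaves. Of 10 genes listed 7 were tested, the others having too few counts, and 3 of the 7 were called higher (background 3.13%) and none lower. The filter on the mean over all 12 libraries admits such genes through the groups where they are high. The 3 called, SPCH, MUTE and SDD1, had 2, 0 and 1 counts in ABA-treated old leaves, against 63, 84 and 117 in young. Their calls and the list median are thus no independent support for an age difference. The median of the 7 was 3.08, their median length 1796 nucleotides. SPCH, the bHLH factor that starts the lineage, had 1.33, 0.936 and 0.562 CPM in young leaves, against 0.0491, 0.0448 and 0 CPM in old leaves. Pooled over the 3 libraries this is 25.2-fold (95% exact counting interval 6.70 to 213) higher in young leaves, with adjusted p = 0.00741. MUTE, the factor that ends the stem-cell-like divisions, had 1.84, 1.25 and 0.692 CPM in young leaves, against 0, 0 and 0 CPM in old leaves. With no count in any old library, its level was at least 22.4-fold higher in young leaves, taking 3 counts over the group as the floor (adjusted p = 0.00616). SDD1, a subtilisin-like protease that limits stomatal density, had 2.07, 2.18 and 0.995 CPM in young leaves, against 0, 0.0448 and 0 CPM in old leaves, which is 93.8-fold (95% exact counting interval 16.5 to 3734) higher (adjusted p = 0.00298). The levels are low. The young and old libraries of these 3 genes did not overlap, as in most called genes, and all 3 remained called after the length correction. The receptors TMM (2.8 ± 0.67, adjusted p = 0.0133) and ERL1 (3.08 ± 0.73, adjusted p = 0.0126) and the peptides EPF1 (1.79 ± 0.54, adjusted p = 0.0285) and EPFL9 (1.09 ± 0.36, adjusted p = 0.0367) were not called, all with positive log2 fold changes.

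The guard cell markers were not called, 0 of 6, with a median of 1.36. FAMA, a factor of the last step to guard cells, had 12.1, 17.3 and 15.7 CPM in young leaves, against 5.31, 5.51 and 5.86 CPM in old leaves (log2 fold change 1.44 ± 0.36 (SE), adjusted p = 0.0144). The guard cell factor MYB60 had 3.91, 2.76 and 6.23 CPM in young leaves, against 1.92, 0.627 and 2.13 CPM in old leaves (log2 fold change 1.54 ± 0.41 (SE), adjusted p = 0.0181), and the kinase HT1 had 1.1, 1.47 and 1.90 CPM in young leaves, against 0.590, 0.493 and 0.622 CPM in old leaves (log2 fold change 1.38 ± 0.41 (SE), adjusted p = 0.0258). The 6 markers summed to between 36.7 and 45.9 CPM in young leaves, against 18 to 20.6 CPM in old leaves, so that the sums did not overlap. Of single genes, 4489 of the 18291 tested did not overlap in this direction. In whole leaves, more cells of a type and more RNA per cell cannot be told apart.

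The largest increase among genes with more than 3 counts in old leaves was that of an epidermal gene. PDF1, which encodes a protein of the protoderm and young epidermis, had 47.9, 42.0 and 8.65 CPM in young leaves, against 0.0983, 0.224 and 0 CPM in old leaves (log2 fold change 8.42 ± 0.87 (SE), adjusted p = 0.00175). Replicate 3 of the young leaves lay well below the other two young libraries, yet above every old library. LTL1, a GDSL lipase named for lithium tolerance, had 50.2, 29.2 and 17.3 CPM in young leaves, against 0.639, 0.627 and 0 CPM in old leaves (log2 fold change 6.46 ± 1.12 (SE), adjusted p = 0.00643). The subtilase SBT1.3 had 47.3, 37.0 and 21.0 CPM in young leaves, against 2.01, 0.627 and 0.799 CPM in old leaves (log2 fold change 4.98 ± 0.56 (SE), adjusted p = 0.00175). Of the 3 general epidermis markers, the homeodomain factor PDF2 was called higher (1.18 ± 0.24, adjusted p = 0.00871), while ATML1 (0.39 ± 0.24, adjusted p = 0.218) and the wax synthesis gene FDH (0.34 ± 0.24, adjusted p = 0.265) were not. After the length correction PDF2 was not called and the values of ATML1 and FDH were −1.01 and −0.05.

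Further genes among the 12 largest increases encode an Ole e 1 and extensin family protein, AT5G15780, with 64.1, 65.3 and 15.1 CPM in young leaves, against 0.590, 1.3 and 0.444 CPM in old leaves (log2 fold change 6.10 ± 0.64 (SE), adjusted p = 0.00175), and a copper amine oxidase family protein, AT1G31690, with 6.90, 7.67 and 4.84 CPM in young leaves, against 0.197, 0.224 and 0.0888 CPM in old leaves (log2 fold change 5.22 ± 0.41 (SE), adjusted p = 0.000564). AT2G39690, AT3G06880, AT4G02110 and AT5G45520 had log2 fold changes of 5.10, 5.06, 5.52 and 5.49. They are annotated as a DUF547 protein, a WD40 repeat-like protein, a transcription coactivator and a leucine-rich repeat protein. AT3G22121, an RNA gene, overlaps the cell wall protein gene CWLP on the opposite strand, and as the strand setting of the counting was not given, its change (6.02) is uncertain.

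DNA replication genes were higher in young leaves. Of 16 genes tested, 6 were called higher (background 3.13%) and none lower. All 16 log2 fold changes were positive (8890 of 18291 over all genes), and their median was 1.35 against -0.04 for all genes. The called genes were MCM2, MCM4, MCM6 and MCM7, subunits of the MCM helicase that unwinds DNA, CDC6, which loads the helicase on origins, and HTR9. HTR9 encodes a histone H3 with near-identical copies in the genome, so its count is uncertain. MCM6 had 6.35, 5.17 and 5.06 CPM in young leaves, against 1.47, 0.493 and 0.355 CPM in old leaves (log2 fold change 3.00 ± 0.61 (SE), adjusted p = 0.00925). MCM2 had 8.97, 7.84 and 7.83 CPM in young leaves, against 2.11, 0.851 and 0.799 CPM in old leaves (log2 fold change 2.88 ± 0.56 (SE), adjusted p = 0.00826), and MCM4 had 6.85, 7.44 and 5.06 CPM in young leaves, against 2.56, 2.91 and 1.33 CPM in old leaves (log2 fold change 1.58 ± 0.27 (SE), adjusted p = 0.00643). In each of these the lowest young library lay above the highest old library. Young and old libraries did not overlap in 1201 of the 1246 called genes. MCM7 (2.12 ± 0.44, adjusted p = 0.00938) and CDC6 (1.99 ± 0.42, adjusted p = 0.00975) were similar in size, whereas MCM3 (2.51 ± 0.54, adjusted p = 0.0102) and MCM5 (1.53 ± 0.35, adjusted p = 0.0113) narrowly missed the threshold.

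Which replication genes were called turned on the length correction. After it, the 5 called genes of this list were the histone H3 genes HTR1, HTR2, HTR3, HTR9 and HTR13, and MCM2, MCM4, MCM6, MCM7 and CDC6 were no longer called. The limit given for HTR9 holds for all 5, which are copies of 1 histone type, so their counts are uncertain and they are not separate findings. The median of the list was 1.48 with the correction, and its median transcript length is 1935 nucleotides. The transcripts of MCM2, MCM4 and MCM6 are longer, 3158, 2865 and 2840 nucleotides.

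E2F factors switch on replication genes at the start of S phase, and their site was searched as TTTGGCGC or TTTCCCGC, on both strands, in the 250 bases before the annotated start of the longest transcript. Neither spelling contains another motif searched here. It was present in 5 of the 16 replication genes, MCM2, MCM3, MCM4, MCM5 and MCM6, and in 0.958% of 27443 protein-coding genes. Among genes called higher in young leaves 2.15% held it, and among genes called lower 0.623%. The windows of the 3 called genes are shown because they carry the match, with the site in capitals, 5′ to 3′ toward the gene, in RefSeq's TAIR10.1 assembly. MCM2 is at chr1:16969990-16970239, plus strand, MCM4 at chr2:7130730-7130979, minus strand and MCM6 at chr5:18010668-18010917, minus strand. A match is a description of these letters only.
MCM2: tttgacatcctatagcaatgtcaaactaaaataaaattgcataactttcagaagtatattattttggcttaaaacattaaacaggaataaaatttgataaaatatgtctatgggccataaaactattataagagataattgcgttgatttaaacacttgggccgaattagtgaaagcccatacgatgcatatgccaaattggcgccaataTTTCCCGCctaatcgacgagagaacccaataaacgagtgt
MCM4: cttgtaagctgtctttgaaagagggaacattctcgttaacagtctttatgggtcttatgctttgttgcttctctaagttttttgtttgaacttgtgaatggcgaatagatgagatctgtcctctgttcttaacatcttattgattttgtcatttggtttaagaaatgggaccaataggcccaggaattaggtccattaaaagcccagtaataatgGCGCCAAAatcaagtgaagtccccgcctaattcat
MCM6: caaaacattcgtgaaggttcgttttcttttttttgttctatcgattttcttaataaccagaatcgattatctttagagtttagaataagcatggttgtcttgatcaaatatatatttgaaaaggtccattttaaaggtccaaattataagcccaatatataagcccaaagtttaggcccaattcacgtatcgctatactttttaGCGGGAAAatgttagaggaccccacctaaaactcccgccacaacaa

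Genes of mitosis and cytokinesis had positive log2 fold changes in all 16 of 17 listed genes that were tested. Their median was 1.31 and their median length 1699 nucleotides, but only CYCB1;2 was called (background 3.13% higher). CYCB1;2, a B-type cyclin of the G2 to M transition, had 2.62, 2.41 and 1.86 CPM in young leaves, against 0.197, 0.269 and 0.355 CPM in old leaves (log2 fold change 3.19 ± 0.57 (SE), adjusted p = 0.00704), and it remained called after the length correction. The mitotic kinase CDKB2;1 had 5.89, 5.66 and 4.33 CPM in young leaves, against 3.19, 1.75 and 1.33 CPM in old leaves (log2 fold change 1.36 ± 0.34 (SE), adjusted p = 0.0151). The D-type cyclin CYCD3;1, which acts at the G1 to S transition, had 11.1, 11.3 and 8.31 CPM in young leaves, against 4.23, 4.12 and 4.35 CPM in old leaves (log2 fold change 1.25 ± 0.32 (SE), adjusted p = 0.0156). Neither gene's libraries overlapped between ages, as in 4489 of the 18291 tested genes in this direction, and neither was called.

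Among the 12 largest increases were 2 kinesins of the phragmoplast, the structure that builds the new wall between daughter cells. POK2 had 4.69, 7.49 and 0.735 CPM in young leaves, against 0.197, 0.134 and 0 CPM in old leaves (log2 fold change 5.25 ± 0.95 (SE), adjusted p = 0.00717), and KINESIN-12B had 3.13, 3.74 and 2.25 CPM in young leaves, against 0.147, 0.0448 and 0 CPM in old leaves (log2 fold change 5.79 ± 1.06 (SE), adjusted p = 0.00722). WYR, an inner centromere protein picked after its values were seen, had 3.27, 3.48 and 0.952 CPM in young leaves, against 0.0491, 0.0896 and 0 CPM in old leaves, or 45.7-fold (95% exact counting interval 15.4 to 224) higher with adjusted p = 0.0074. These transcripts are long, 8663, 4330 and 5896 nucleotides, and after the length correction none of the 3 genes was called.

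The motif CAACGG, the core of the element that MYB3R factors bind in genes of the G2 to M phase, was chosen for a search after the values were seen. It occurred, on either strand, in 8 of 17 mitosis genes and in 5.35% of all 27443 windows. The window of CYCB1;2 (chr5:1861657-1861906, minus strand), the called member, held it 3 times, shown in capitals.
CYCB1;2: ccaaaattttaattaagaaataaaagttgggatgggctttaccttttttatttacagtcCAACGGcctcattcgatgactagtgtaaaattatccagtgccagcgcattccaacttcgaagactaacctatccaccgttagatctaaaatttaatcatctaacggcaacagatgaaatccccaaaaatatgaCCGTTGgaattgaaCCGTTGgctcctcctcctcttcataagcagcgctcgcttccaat

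**Figure D2:**
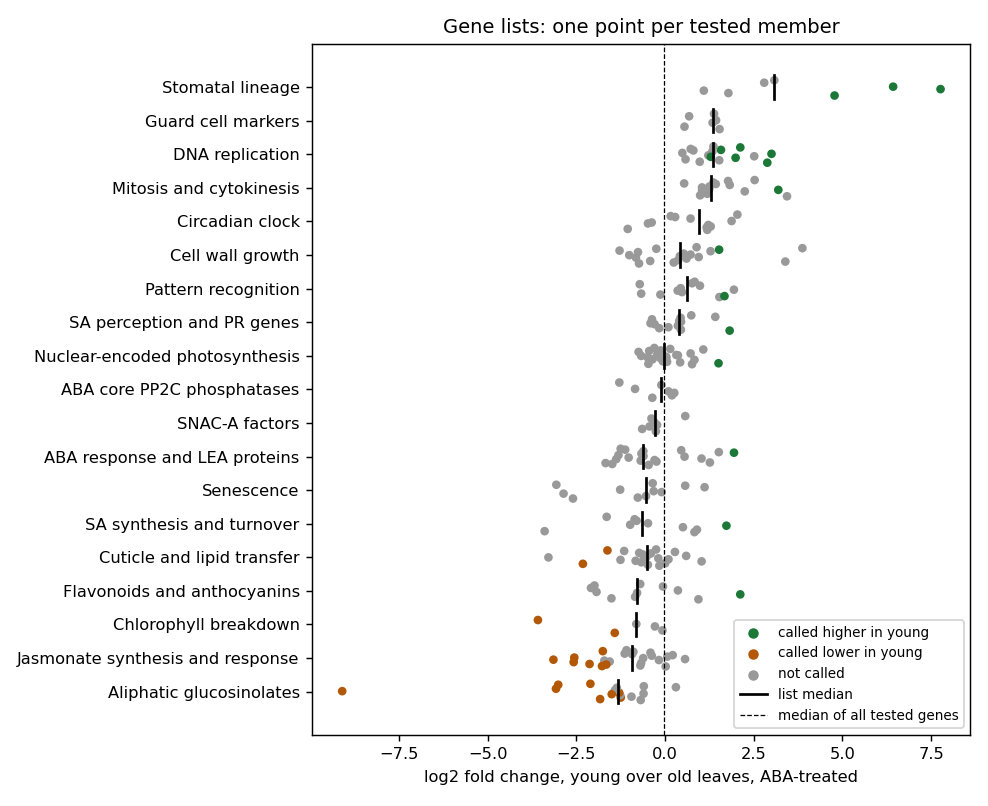
Log2 fold change of each tested list member, ABA-treated young over ABA-treated old leaves, with called genes coloured, the list median as a bar and the median of all tested genes (-0.04) as a dashed line. The stomatal lineage has the highest median (3.08) of the lists drawn and the aliphatic glucosinolates the lowest (-1.32).

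Among called genes with many reads, 4 genes of metabolism and chemical defense stood out in young leaves. TGG1 and TGG2 encode myrosinases, the enzymes that split glucosinolates into toxic products when tissue is damaged. TGG1 had 1522, 1601 and 1198 CPM in young leaves, against 339, 393 and 191 CPM in old leaves (log2 fold change 2.28 ± 0.26 (SE), adjusted p = 0.00175), and TGG2 had 1157, 1248 and 745 CPM in young leaves, against 198, 275 and 96.6 CPM in old leaves (log2 fold change 2.58 ± 0.30 (SE), adjusted p = 0.00188). The young libraries of both lay well above all old ones. The 2 genes are close copies that neighbour each other, so the split of reads between them is uncertain. CA1, the chloroplast carbonic anhydrase, had 1625, 1245 and 1555 CPM in young leaves, against 523, 249 and 467 CPM in old leaves (log2 fold change 1.89 ± 0.26 (SE), adjusted p = 0.00298). GGT1, the glutamate:glyoxylate aminotransferase of photorespiration, had 1525, 1499.7 and 1003 CPM in young leaves, against 626, 525 and 411 CPM in old leaves (log2 fold change 1.36 ± 0.25 (SE), adjusted p = 0.0074). After the length correction TGG1, TGG2 and CA1 remained called and GGT1 did not.

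Of 26 nuclear genes of photosynthesis tested, 1 was called higher (background 3.13%) and none lower, with a median of -0.04. The median turned to 0.34 with the length correction, where 2 were called higher. The called gene was LHCB4.3, a light-harvesting protein of photosystem II, with 14, 9.81 and 10.6 CPM in young leaves, against 3.64, 4.21 and 4.17 CPM in old leaves (log2 fold change 1.51 ± 0.29 (SE), adjusted p = 0.00837), also called after the length correction. The small Rubisco subunit gene RBCS2B had 1063, 643 and 1013 CPM in young leaves, against 395, 239 and 752 CPM in old leaves (log2 fold change 1.08 ± 0.29 (SE), adjusted p = 0.0188), and LHCA5 had log2 fold change -0.74. The mesophyll markers LHCB1.3 (-0.19), RBCS1A (0.43) and RCA (0.72) were not called either.

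Of 19 wall growth genes 1 was called higher (background 3.13%) and none lower, with a median of 0.42, and of -0.28 with the length correction. This was CESA2, a subunit of primary wall cellulose synthase, with 189, 158 and 116 CPM in young leaves, against 93.9, 57.6 and 26.0 CPM in old leaves (log2 fold change 1.52 ± 0.32 (SE), adjusted p = 0.00964). Its transcript has 4247 nucleotides, and after the length correction its log2 fold change was 0.05. CESA6 (0.89 ± 0.35, adjusted p = 0.0682) and the expansin gene EXPA4 (-1.28 ± 0.34, adjusted p = 0.0181) were not called. No growth regulator was called among 6 tested of 11 (median 0.17). The organ size factor ANT came nearest, with 5.98, 4.19 and 4.46 CPM in young leaves, against 2.56, 1.84 and 1.24 CPM in old leaves (log2 fold change 1.43 ± 0.31 (SE), adjusted p = 0.0103), followed by GRF2 (1.37 ± 0.42, adjusted p = 0.0284) and GIF1 (-1.04 ± 0.42, adjusted p = 0.0727).

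The 12 clock genes had a median of 0.95 with none called, and PRR9 (2.04 ± 0.59, adjusted p = 0.0236), PRR7 (1.88 ± 0.50, adjusted p = 0.0181) and GI (1.22 ± 0.30, adjusted p = 0.0137) had the smallest p-values. The clock transcripts are long, 2688.5 nucleotides at the median, and after the length correction the median of the list was 0.02.

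Genes of aliphatic glucosinolate synthesis were lower in young leaves. These methionine-derived compounds deter herbivores, and the list holds enzymes from chain elongation to side chain oxidation. All 16 genes were tested, 8 were called lower (background 3.68%) and none higher, 15 had negative values and the median was -1.32. The summed level ran from 629 to 1035 CPM in young leaves, against 2118 to 3126 CPM in old leaves.

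The 3 members with the largest decreases act in chain elongation and at the entry to the core structure. MAM3, which elongates the methionine side chain repeatedly, had 0, 0 and 0.0433 CPM in young leaves, against 10.1, 10.2 and 15.4 CPM in old leaves. It had 1 count in young and 606 counts in old leaves, which made it 756-fold (95% exact counting interval 135 to 29920.2) higher in old leaves (adjusted p = 0.00192). BCAT4, the aminotransferase that starts chain elongation, had 66.5, 41.5 and 117 CPM in young leaves, against 455, 401 and 912 CPM in old leaves (log2 fold change -3.01 ± 0.37 (SE), adjusted p = 0.00213). The cytochrome P450 gene CYP79F2, of that entry step, had 0.598, 0.490 and 0.779 CPM in young leaves, against 6.34, 4.26 and 5.15 CPM in old leaves (log2 fold change -3.07 ± 0.45 (SE), adjusted p = 0.00353). The libraries of the 2 ages were far apart in all 3 genes.

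FMOGS-OX1, which oxidizes the side chain, had 8.88, 4.23 and 17.8 CPM in young leaves, against 39.8, 25.8 and 52.6 CPM in old leaves (log2 fold change -2.10 ± 0.35 (SE), adjusted p = 0.00549). The other called members were CYP83A1, FMOGS-OX3, SUR1 and MAM1, with log2 fold changes from -1.83 to -1.25. All 8 remained called after the length correction, which called 10 of the 16, and the median length of the list, 1811.5 nucleotides, is near that of all genes. The end of BCAT4 overlaps that of a neighbour on the opposite strand. Of 11 genes of indole glucosinolate and camalexin synthesis none was called (median -0.59), with the smallest p-values for MYB34 (-0.93), UGT74B1 (-0.66) and CYP83B1 (-0.59).

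Of the jasmonate genes, a part was lower in young leaves. Jasmonate is the wound hormone, made from membrane lipids in the plastid and peroxisome. Of 23 genes tested 7 were called lower (background 3.68%) and none higher, 16 were not called, 4 had positive values, and the list had a median of -0.93 and a median length of 1772 nucleotides. In synthesis, allene oxide synthase, AOS, had 353, 186 and 351 CPM in young leaves, against 1120.1, 865 and 2102 CPM in old leaves (log2 fold change -2.13 ± 0.32 (SE), adjusted p = 0.00388). The allene oxide cyclase gene AOC1 had 37.6, 20.5 and 29.9 CPM in young leaves, against 197, 134 and 174 CPM in old leaves (log2 fold change -2.56 ± 0.32 (SE), adjusted p = 0.00232), and its close copy AOC2 had log2 fold change -1.75. Every old library of these genes lay above every young one, and 1201 of the 1246 called genes had no overlap.

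Of the response genes, VSP1, a vegetative storage protein, had 8.56, 9.72 and 26.0 CPM in young leaves, against 83.2, 66.5 and 104 CPM in old leaves (log2 fold change -2.57 ± 0.44 (SE), adjusted p = 0.00601). The thionin gene THI2.1 had 0.368, 0.267 and 0.649 CPM in young leaves, against 4.03, 1.88 and 5.51 CPM in old leaves (log2 fold change -3.14 ± 0.48 (SE), adjusted p = 0.00417). CORI3 (-1.78) and the repressor gene JAZ9 (-1.65) completed the 7, all of which remained called after the length correction. CYP94B1, a P450 that inactivates the active hormone and is outside the list, was among the 12 largest decreases, with 0.138, 0.0446 and 0.0865 CPM in young leaves, against 1.08, 1.39 and 2.04 CPM in old leaves (log2 fold change -3.98 ± 0.56 (SE), adjusted p = 0.00314).

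Of 5 chlorophyll breakdown genes tested 2 were called lower in young leaves (background 3.68%) and none higher, with a median of -0.81. NYE2, which takes magnesium out of chlorophyll, had 1.1, 1.07 and 3.76 CPM in young leaves, against 14.9, 26.3 and 24.8 CPM in old leaves (log2 fold change -3.58 ± 0.40 (SE), adjusted p = 0.00175). PAO, the oxygenase that opens the ring, had 67.5, 50.2 and 84.1 CPM in young leaves, against 151, 193 and 179 CPM in old leaves (log2 fold change -1.42 ± 0.22 (SE), adjusted p = 0.00425). Both remained called after the length correction. NYE1 (-0.28) and NYC1 (-0.07) were near 0. Of 13 senescence genes 11 were tested and none was called (median -0.54), and without the replicate 2 libraries the median was 0.24. ORS1, a NAC factor of senescence, had 0.184, 0.134 and 1.95 CPM in young leaves, against 4.42, 5.87 and 3.02 CPM in old leaves (log2 fold change -3.06 ± 0.91 (SE), adjusted p = 0.0259). The senescence-linked wall enzyme gene XTH24 had 62.8, 42.3 and 69.1 CPM in young leaves, against 576, 588 and 174 CPM in old leaves (log2 fold change -2.86 ± 0.84 (SE), adjusted p = 0.0254), and SAG21 had adjusted p = 0.102. In XTH24 old replicate 3 lay much nearer to the young libraries than old replicates 1 and 2.

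Of 22 genes for surface lipids 20 were tested, 2 were called lower (background 3.68%) and none higher, with a median of -0.50, and 1 was called lower after the length correction. The lipid transfer protein gene LTP3 had 876, 510.2 and 979 CPM in young leaves, against 2957, 3133 and 6448 CPM in old leaves (log2 fold change -2.31 ± 0.42 (SE), adjusted p = 0.00704). CER6, which elongates very long chain fatty acids for wax, had 280.1, 236 and 338 CPM in young leaves, against 616, 921 and 1108 CPM in old leaves (log2 fold change -1.62 ± 0.22 (SE), adjusted p = 0.00298). After the length correction CER6 remained called and LTP3, with a transcript of 769 nucleotides, did not. The other called genes with many reads encode small proteins: the glycine-rich protein gene GRP-3 had 1632, 1635 and 2189 CPM in young leaves, against 3241, 4899 and 10605 CPM in old leaves (log2 fold change -1.57 ± 0.32 (SE), adjusted p = 0.00871), the metallothionein gene MT2A had 1319, 1615 and 1722 CPM in young leaves, against 2279.7, 4086 and 7387 CPM in old leaves (log2 fold change -1.40 ± 0.26 (SE), adjusted p = 0.00761), and ECS1 had 633, 949 and 1463 CPM in young leaves, against 1668, 2353 and 7859 CPM in old leaves (log2 fold change -1.73 ± 0.31 (SE), adjusted p = 0.00696). Their transcripts measure 1065, 963 and 868 nucleotides, and none of the 3 was called after the length correction.

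**Figure D3:**
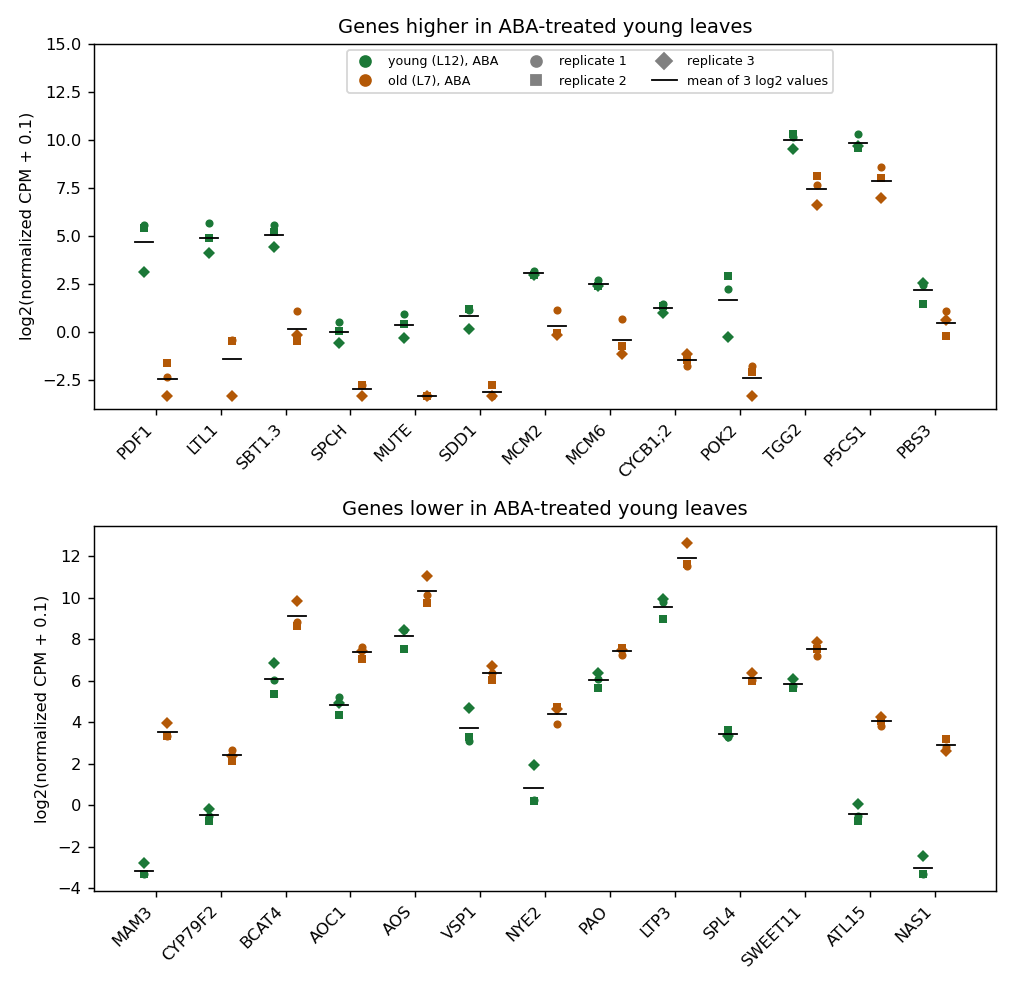
Level in each ABA-treated library, as log2(normalized CPM + 0.1), of genes called higher (top) or lower (bottom) in young leaves. For each gene the 3 young libraries are on the left and the 3 old libraries on the right, marker shapes give the replicate and bars the mean of the 3 log2 values. No gene drawn has overlapping young and old libraries, which holds for 1201 of the 1246 called genes.

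SWEET11, a sucrose exporter of phloem parenchyma and a phloem marker here, had 53.0, 50.6 and 67.7 CPM in young leaves, against 144, 182 and 235 CPM in old leaves (log2 fold change -1.68 ± 0.27 (SE), adjusted p = 0.00472), and remained called after the length correction. The phloem loader SUC2 (-0.72 ± 0.24, adjusted p = 0.0373) and the xylem protease XCP1 (0.69 ± 0.22, adjusted p = 0.0351) were not called. UMAMIT20, of an amino acid transporter family, had 1.89, 0.713 and 6.19 CPM in young leaves, against 25.0, 38.7 and 29.1 CPM in old leaves (log2 fold change -3.88 ± 0.61 (SE), adjusted p = 0.00459). OCT1, a carnitine transporter, had 0.0460, 0 and 0.130 CPM in young leaves, against 3.49, 1.93 and 1.78 CPM in old leaves (log2 fold change -5.19 ± 0.76 (SE), adjusted p = 0.00549), the largest decrease among genes with more than 3 counts in young leaves. SULTR3;5, of the sulfate transporter family, had 0.0460, 0.0446 and 0.0865 CPM in young leaves, against 1.38, 0.717 and 0.888 CPM in old leaves (log2 fold change -3.87 ± 0.56 (SE), adjusted p = 0.00354). NAS1, which makes the metal chelator nicotianamine and was picked after its values were seen, had 0, 0 and 0.0865 CPM in young leaves, against 6.93, 9.14 and 6.13 CPM in old leaves. With 2 counts in young and 414 in old leaves it was 258-fold (95% exact counting interval 71.1 to 2140.2) higher in old leaves (adjusted p = 0.00245), and it remained called after the length correction.

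SPL4, a target of microRNA miR156 in the change from juvenile to adult leaves and in flowering, had 9.80, 12.3 and 9.86 CPM in young leaves, against 65.1, 64.3 and 82.5 CPM in old leaves (log2 fold change -2.74 ± 0.30 (SE), adjusted p = 0.00175). It was the only called gene of 9 SPL genes tested of 10 (background 3.68% lower), with a median of 0.31 that turned to -0.28 with the length correction. SPL5 (-1.45 ± 0.34, adjusted p = 0.0127) and SPL6 (0.51 ± 0.26, adjusted p = 0.139) followed. FT, the mobile flowering signal made in leaf veins, was picked after its values were seen and had 0.0460, 0.0446 and 0.0433 CPM in young leaves, against 1.23, 1.48 and 2.58 CPM in old leaves. That is 36.2-fold (95% exact counting interval 12.0 to 179) higher in old leaves (adjusted p = 0.0028). SPL4 and FT remained called after the length correction. The ubiquitin ligase gene ATL15 had 0.598, 0.490 and 0.952 CPM in young leaves, against 14, 16.4 and 19.3 CPM in old leaves (log2 fold change -4.64 ± 0.38 (SE), adjusted p = 0.000619), with all 3 old libraries far above the young ones. LSU1, a low-sulfur response gene, had 0, 0.0446 and 1.08 CPM in young leaves, against 1.72, 1.17 and 15.9 CPM in old leaves (log2 fold change -4.20 ± 0.86 (SE), adjusted p = 0.00913), with replicate 3 far above the other 2 in both ages, and was not called after the length correction.

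Of the remaining 12 largest decreases, AT2G22930, AT2G41810, AT1G54540, AT3G21710, AT1G47480 and AT5G13900 had log2 fold changes between -5.10 and -3.90. They are annotated as a glycosyltransferase, a DUF642 protein, a LEA hydroxyproline-rich glycoprotein, an uncharacterized protein, an alpha/beta hydrolase and a lipid transfer superfamily protein. Among 12 Aux/IAA genes, repressors of auxin response, IAA17 alone was called, and lower (background 3.68%). It had 5.80, 2.67 and 4.59 CPM in young leaves, against 16.6, 11.3 and 29.6 CPM in old leaves (log2 fold change -2.08 ± 0.30 (SE), adjusted p = 0.00334). IAA7 (1.01 ± 0.22, adjusted p = 0.0105) and IAA4 (0.84 ± 0.23, adjusted p = 0.0189) had positive values without being called. The median was -0.15, and with the length correction it turned to 0.36, with 2 members called higher and IAA17 still called lower. Of 11 flavonoid genes tested of 14, only FLS1, flavonol synthase, was called, and higher (background 3.13%). It had 10.1, 6.46 and 9.73 CPM in young leaves, against 2.06, 1.66 and 2.22 CPM in old leaves (log2 fold change 2.12 ± 0.31 (SE), adjusted p = 0.00355), and was also called after the length correction. The anthocyanin regulator PAP1 (-2.09 ± 0.51, adjusted p = 0.0141) and UGT75C1 (-1.93 ± 0.43, adjusted p = 0.011) had negative values, with a list median of -0.79.

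In each of the SA lists 1 gene was called higher in young leaves (3.13% of all genes were) and none lower. PBS3, an acyl-adenylate/thioester-forming enzyme needed for SA accumulation, had 5.38, 2.63 and 5.84 CPM in young leaves, against 2.01, 0.762 and 1.42 CPM in old leaves (log2 fold change 1.73 ± 0.31 (SE), adjusted p = 0.00704). Its young and old libraries did not overlap, as in 1201 of the 1246 called genes. PBS3 remained called after the length correction, where its log2 fold change was 1.36. Of 14 genes of SA synthesis and turnover 10 were tested, PBS3 was the 1 called, and the median was -0.64, which turned positive without old replicate 2. SID2, isochorismate synthase, had 16.3, 8.42 and 8.56 CPM in young leaves, against 9.53, 5.24 and 3.82 CPM in old leaves (log2 fold change 0.83 ± 0.32 (SE), adjusted p = 0.0669), and young replicates 2 and 3 lay within the range of the old libraries. EDS5, the isochorismate transporter, had 3.86, 4.1 and 3.46 CPM in young leaves, against 7.47, 7.44 and 5.68 CPM in old leaves (log2 fold change -0.86 ± 0.29 (SE), adjusted p = 0.0429).

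Of 13 genes of SA perception and response, 1 was called higher (background 3.13%) and none lower (median 0.40). This was EDS1, a hub of basal immunity, with 14.2, 34.1 and 14.1 CPM in young leaves, against 7.42, 7.08 and 2.84 CPM in old leaves (log2 fold change 1.82 ± 0.39 (SE), adjusted p = 0.009998), just inside the threshold and no longer called after the length correction. The receptor NPR1 had 35.2, 51.3 and 41.9 CPM in young leaves, against 47.5, 55.9 and 39.3 CPM in old leaves (log2 fold change -0.16 ± 0.23 (SE), adjusted p = 0.594), and NPR4 had log2 fold change 0.74 ± 0.36 (SE), adjusted p = 0.129. The marker PR1 had 3.54, 1.11 and 21.0 CPM in young leaves, against 1.38, 1.70 and 0.799 CPM in old leaves (log2 fold change 1.42 ± 0.83 (SE), adjusted p = 0.198). Its high value in young replicate 3 was not shared by the other young libraries, and the ages overlapped. PR2, a glucanase, had 32.3, 17.7 and 33.3 CPM in young leaves, against 15, 37.4 and 27.3 CPM in old leaves (log2 fold change 0.10 ± 0.39 (SE), adjusted p = 0.86), again overlapping.

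Of 13 pattern recognition genes 12 were tested, 1 was called higher (background 3.13%) and none lower (median 0.62). The list holds receptors of microbial patterns and damage signals, and genes that act with or after them. PEPR1, receptor of Pep peptides, had 14.4, 14 and 11.3 CPM in young leaves, against 5.16, 5.65 and 1.78 CPM in old leaves (log2 fold change 1.68 ± 0.34 (SE), adjusted p = 0.00938). Its transcript has 3828 nucleotides, it was not called after the length correction, and the median length of the list was 2926.5 nucleotides. With that correction no member was called higher and 1 was called lower, and the median was 0.12. The chitin receptor LYK5 (0.83 ± 0.27, adjusted p = 0.0353) and the co-receptor BAK1 (-0.71 ± 0.20, adjusted p = 0.0207) were not called. In the defensin branch none of 8 genes was called. The chitinase gene CHIB had 6.76, 3.48 and 16.0 CPM in young leaves, against 20.0, 29.7 and 33.1 CPM in old leaves (log2 fold change -1.75 ± 0.44 (SE), adjusted p = 0.0153). PDF1.2A had 0, 0.0446 and 1.21 CPM in young leaves, against 0, 0 and 0.0888 CPM in old leaves, and PDF1.2B had 0, 0 and 1.60 CPM in young leaves, against 0, 0 and 0 CPM in old leaves, so both rested on young replicate 3. The fitted median of this list was 1.12, but −0.15 with the 4 genes of 3 or fewer counts in old leaves taken at their bound or ratio.

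Of 22 ABA response genes 20 were tested, 1 was called higher (background 3.13%) and none lower, and the median was -0.61 with a median length of 1454.5 nucleotides. With the length correction the median was -0.05 and no member was called. P5CS1, the rate-limiting enzyme of proline synthesis, had 1273, 761 and 829.6 CPM in young leaves, against 385, 255 and 128 CPM in old leaves (log2 fold change 1.94 ± 0.38 (SE), adjusted p = 0.00837), and was not called after the length correction (transcript 2886 nucleotides). RAB18, a dehydrin and common marker of ABA response, had 1527, 1352 and 1556 CPM in young leaves, against 1388, 2835 and 2474 CPM in old leaves (log2 fold change -0.46 ± 0.32 (SE), adjusted p = 0.272), and the ages overlapped. The smallest adjusted p-values among the genes not called belonged to the cold- and ABA-induced gene KIN2, with 2285, 2175 and 3337 CPM in young leaves, against 4264, 5179 and 16605 CPM in old leaves (log2 fold change -1.49 ± 0.32 (SE), adjusted p = 0.0103), and the dehydrin gene ERD14, with 434, 401 and 701 CPM in young leaves, against 784, 1195 and 1935 CPM in old leaves (log2 fold change -1.31 ± 0.28 (SE), adjusted p = 0.0103). RD29B, a classical ABA target, had 315, 267 and 217 CPM in young leaves, against 95.3, 175 and 61.3 CPM in old leaves (log2 fold change 1.52 ± 0.75 (SE), adjusted p = 0.133).

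ABA responsive elements were searched as ACGTGNC on both strands and found in the 250-base windows of 8 of 22 ABA response genes and in 8.65% of all 27443 windows. They occurred in 10.4% of genes called higher in young leaves and in 11.2% of genes called lower. RAB18 (chr5:26519448-26519697, minus strand) held 1 match and RD29B (chr5:21236771-21237020, plus strand) held 3. Both windows are shown, with matches in capitals, as targets of the sprayed hormone whose level was not called between ages.
RAB18: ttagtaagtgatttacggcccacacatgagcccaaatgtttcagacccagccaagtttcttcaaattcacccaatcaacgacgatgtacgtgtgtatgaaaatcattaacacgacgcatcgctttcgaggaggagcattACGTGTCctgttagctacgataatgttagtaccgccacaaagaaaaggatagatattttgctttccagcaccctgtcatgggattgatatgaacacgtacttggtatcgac
RD29B: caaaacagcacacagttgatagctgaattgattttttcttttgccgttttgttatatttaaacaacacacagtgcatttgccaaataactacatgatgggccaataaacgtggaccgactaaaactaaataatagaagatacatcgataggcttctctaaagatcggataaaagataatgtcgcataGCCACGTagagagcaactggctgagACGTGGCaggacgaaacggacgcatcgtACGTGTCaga
The W box, the site of WRKY factors searched as TTGACC or TTGACT, was in 28.5% of all windows, 24.4% of those of genes called higher and 29.6% of those of genes called lower.

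Upstream of these targets, 1 of 9 ABA receptors was called lower in young leaves (background 3.68%) and none higher (median -0.76). PYL1 had 7.41, 3.74 and 7.05 CPM in young leaves, against 17.1, 12.3 and 24.5 CPM in old leaves (log2 fold change -1.54 ± 0.30 (SE), adjusted p = 0.00842), and was not called after the length correction. PYL5 (-2.39 ± 0.86, adjusted p = 0.0497) and PYL8 (-0.76 ± 0.26, adjusted p = 0.0439) followed. None of 7 PP2C genes tested of 9 was called (median -0.10). HAI1 had 40.8, 77.1 and 187 CPM in young leaves, against 37.3, 339 and 447 CPM in old leaves (log2 fold change -1.29 ± 0.44 (SE), adjusted p = 0.0416), and its 3 old libraries spanned a wide range. PP2CA (-0.84 ± 0.35, adjusted p = 0.0823) and ABI1 (-0.36 ± 0.39, adjusted p = 0.482) were not called.

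Among 9 genes for kinases and bZIP factors none was called (median 0.30). The AREB/ABF factor gene ABF3 had 72.4, 70.2 and 78.1 CPM in young leaves, against 44.2, 29.2 and 34.4 CPM in old leaves (log2 fold change 1.06 ± 0.33 (SE), adjusted p = 0.0305). SNRK2.8, a kinase also linked to NPR1, had 1.66, 0.847 and 1.64 CPM in young leaves, against 0.885, 0.134 and 0.622 CPM in old leaves (log2 fold change 1.52 ± 0.51 (SE), adjusted p = 0.0384). ABI5 had log2 fold change 1.02 ± 0.34 (SE), adjusted p = 0.0404. The ABA synthesis and breakdown list had no call among 8 (median -0.22). After the length correction 1 member was called lower and the median was -0.59. The synthesis gene NCED3 had log2 fold change -1.55 ± 0.39 (SE), adjusted p = 0.0156, the hydroxylase gene CYP707A1 had log2 fold change -1.22 ± 0.47 (SE), adjusted p = 0.0631, and BG1, which releases ABA from its glucose ester, had log2 fold change -0.88 ± 0.26 (SE), adjusted p = 0.0267.

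The 7 SNAC-A factors were not called either, with a median of -0.29. ANAC019 had 21.7, 64.9 and 56.5 CPM in young leaves, against 19.9, 104 and 44.9 CPM in old leaves (log2 fold change -0.26 ± 0.65 (SE), adjusted p = 0.77). ANAC032 had 11.9, 11.4 and 23.7 CPM in young leaves, against 10.1, 28.6 and 21.9 CPM in old leaves (log2 fold change -0.44 ± 0.40 (SE), adjusted p = 0.397), and ANAC072 had 57.3, 86.5 and 116 CPM in young leaves, against 45.7, 176 and 116 CPM in old leaves (log2 fold change -0.38 ± 0.43 (SE), adjusted p = 0.494). In all 3 genes the highest of the 6 libraries was old replicate 2, and the ages overlapped. ANAC002 (-0.64) and ANAC102 (0.57) had unlike signs. Without old replicate 2 the median of the list was 0.39.

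The mock-treated leaves were used to ask whether the age difference was particular to ABA. Their libraries are not those of the ABA contrast, but both comparisons came from the same fit of all 12 libraries. They share its estimate of spread and its replicate block, so the 2 sets of calls are not independent. Under mock 1246 genes (6.81%) were called higher and 1482 (8.1%) lower in young leaves, together 14.9% of genes tested, and 51.8% had an unadjusted p below 0.05. Of the 1246 genes called under ABA, 840 (67.4%) were also called under mock, in the same direction, which is 30.8% of the mock calls, and none was called in opposite directions. Signs agreed for 1243 of the 1246, and the exceptions were AT1G06830, RPL3B and LHCB4.3. Over all tested genes signs agreed for 15328 of 18291 (83.8%). Across all 18291 genes Pearson's r between the 2 sets of log2 fold changes was 0.813 and Spearman's rho 0.833. Genes are not independent replicates, and both sets correlated with transcript length (rho 0.569 under ABA and 0.535 under mock). The length correction gave r = 0.733.

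No gene passed the threshold for a difference between the 2 age effects in edgeR's test. Adjusted p-values began at 0.0793, while 1358 genes (7.42%) lay below 0.05 before adjustment. DESeq2 called 35 genes, 29 of them with a positive difference, limma with voom called none, and scaling by library size alone called 1. Thus the 406 genes called under ABA and not under mock are not shown to differ by treatment, and 77 of them had an unadjusted p for the difference below 0.05.

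**Figure D4:**
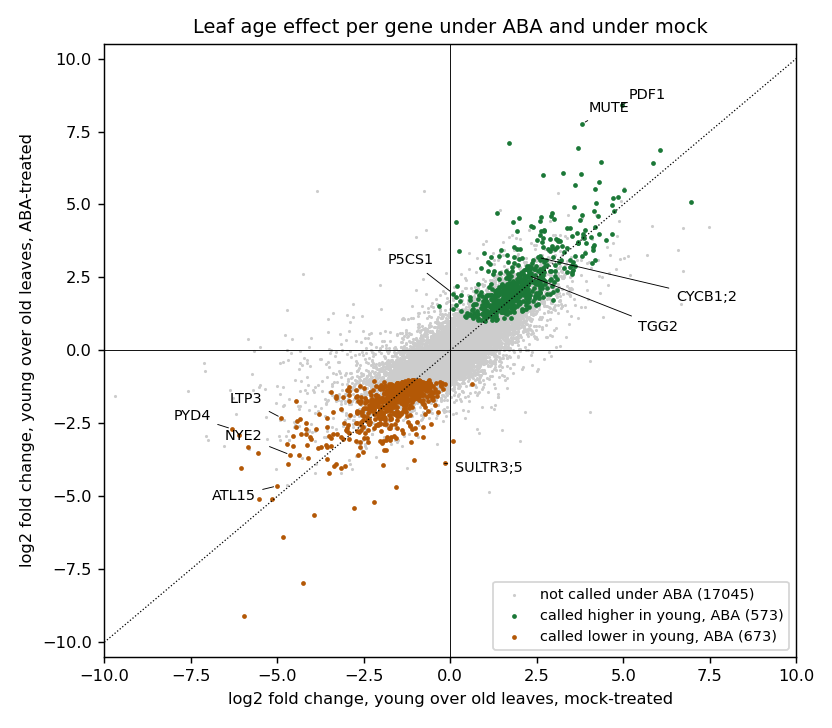
Log2 fold change of young over old leaves for each tested gene, ABA-treated (vertical axis) against mock-treated (horizontal axis), coloured where called under ABA, with a dotted line of equal values. Of the 1246 coloured genes 1243 have the same sign on both axes, against 83.8% of all tested genes. Genes such as P5CS1 and SULTR3;5 lie near 0 on the mock axis only.

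The 3 genes with the smallest p for the difference were LTP2, AT1G33055 and PYD4. LTP2, a lipid transfer protein gene, had 150.3, 134 and 129 CPM in young leaves, against 151, 193 and 215 CPM in old leaves (log2 fold change -0.40 ± 0.25 (SE), adjusted p = 0.232). Under mock it had 16.7, 16.4 and 30.7 CPM in mock-treated young leaves, against 176, 282 and 275 CPM in mock-treated old leaves (log2 fold change -3.54 ± 0.28 (SE), adjusted p = 0.000202). The age effect thus had a difference 3.14 ± 0.37 (SE), unadjusted p = 4.34e-06, adjusted p = 0.0793. The 3 mock-treated young libraries lay far below the other 9. AT1G33055, which is uncharacterized, had a difference 4.60 ± 0.65 (SE), unadjusted p = 2.49e-05, adjusted p = 0.228. PYD4, annotated in pyrimidine breakdown, had 6.85, 3.21 and 8.43 CPM in young leaves, against 47.4, 37.0 and 30.9 CPM in old leaves, and under mock 0.216, 0.445 and 0.293 CPM in mock-treated young leaves, against 22.3, 25.5 and 32.7 CPM in mock-treated old leaves (difference 3.62 ± 0.56 (SE), unadjusted p = 5.41e-05, adjusted p = 0.33).

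For ABA response genes the counts and medians of the 2 treatments stand side by side. Under ABA 1 ABA response gene was called higher and none lower, and under mock none was called higher and 8 lower, where the share of all genes called lower was 3.68% under ABA and 8.1% under mock. The medians were -0.61 under ABA and -1.60 under mock. For RAB18 the mock levels were 35.0, 82.9 and 75.2 CPM in mock-treated young leaves, against 95.2, 273 and 316 CPM in mock-treated old leaves (log2 fold change -1.78 ± 0.33 (SE), adjusted p = 0.00381), and the difference 1.32 ± 0.45 (SE), unadjusted p = 0.0145, adjusted p = 0.566. For SNAC-A factors the medians were -0.29 under ABA and -1.99 under mock, with 2 called lower under mock. For senescence genes they were -0.54 and -2.34, again with 2 called lower under mock. The smallest adjusted p for the difference, in edgeR's test, was 0.468 among ABA response genes, 0.581 among SNAC-A factors and 0.512 among senescence genes, so no member is shown to differ.

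Among single genes of these lists, P5CS1 under mock had 267, 167 and 145 CPM in mock-treated young leaves, against 326, 69.7 and 188 CPM in mock-treated old leaves (adjusted p = 0.868), and its difference 1.86 ± 0.53 (SE), unadjusted p = 0.00515, adjusted p = 0.468. PBS3 under mock had 5.39, 3.40 and 4.69 CPM in mock-treated young leaves, against 4.57, 1.32 and 3.93 CPM in mock-treated old leaves (log2 fold change 0.58 ± 0.30 (SE), adjusted p = 0.143), with a difference 1.15 ± 0.43 (SE), unadjusted p = 0.0226, adjusted p = 0.598. PR1 under mock had 1.08, 1.21 and 12.5 CPM in mock-treated young leaves, against 13.5, 2.75 and 29.5 CPM in mock-treated old leaves (log2 fold change -2.00 ± 0.78 (SE), adjusted p = 0.0603), with a difference 3.42 ± 1.14 (SE), unadjusted p = 0.0125, adjusted p = 0.558. In PR1 the signs were opposite under ABA and mock, and neither age effect was called. PR2 under mock had log2 fold change -1.86 ± 0.39 (SE), adjusted p = 0.00645, with a difference 1.95 ± 0.55 (SE), unadjusted p = 0.00501, adjusted p = 0.465.

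In every list with called members under ABA except the SPL genes (0.31 under ABA and -0.09 under mock), the median had the same sign under mock. Of these lists 5 are given here. Over all genes 3.13% were called higher under ABA and 6.81% under mock, and 3.68% and 8.1% lower. Aliphatic glucosinolate genes had -1.32 under ABA and -1.09 under mock, with 8 and 5 called lower. DNA replication genes had 1.35 and 2.04, with 6 and 12 called higher. Mitosis genes had 1.31 and 1.89, with 1 and 7 called higher. Stomatal lineage genes had 3.08 and 3.67, with 3 and 2 called higher. Jasmonate genes had -0.93 and -0.46, with 7 called lower under ABA, and 4 called lower and 1 higher under mock.

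**Figure D5:**
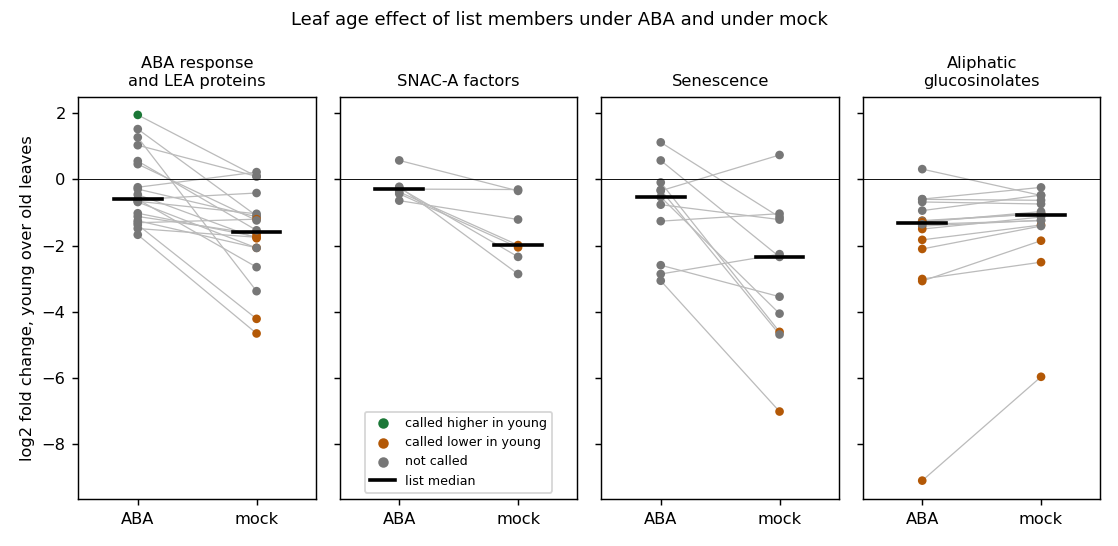
Log2 fold change of young over old leaves for the tested members of 4 lists, under ABA (left) and under mock (right) in each panel, 1 line per gene, with called genes coloured and the list median as a bar. The medians of the ABA response, SNAC-A and senescence lists are -0.61, -0.29 and -0.54 under ABA, against -1.60, -1.99 and -2.34 under mock, and those of the aliphatic glucosinolate genes are -1.32 and -1.09.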

How the data were processed

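Poly(A) RNA of 12 leaf samples was sequenced from directional libraries. The authors deposited whole-number read counts per gene, made per the labels with CASAVA 1.8.2, cutadapt 1.5, TopHat2 2.0.10 and HTSeq 0.6.1 on TAIR10, as the submitters' processing notes name them. For HTSeq, mode and strand setting were not given in the sources used here. Reads mapping to several places were not counted on genes, which lowers close copies. The 5 summary lines of HTSeq, between 5.97% and 10.3% of each library's reads, were left out of totals and tests.

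A mean of 10 counts or more over the 12 libraries admitted a gene to the test in edgeR 4.0.16 (R 4.3.3), a quasi-likelihood fit of 4 groups plus a replicate block with TMM factors and Benjamini-Hochberg adjusted p over all 18291 genes. Replicate numbers were taken to pair samples as the study's repeats. Deviations from the group mean of the 3 same-numbered ABA pairs correlated at 0.329 to 0.368. Other-numbered ABA pairs had a median of -0.198 and reached 0.165. Over all groups, 18 same-numbered pairs ran from -0.0234 to 0.650 and 36 other-numbered ones from -0.651 to 0.461. Deviations sum to 0 in each group, which pushes other-numbered values below 0 when same-numbered ones are positive, so this contrast is no independent test of the pairing. An exact permutation test of 3 against 3 libraries cannot go below p = 0.1, so none is given. Library depth sets the precision: a count of 0 in a group was given a floor of 3 counts over the group, and ratios of low counts carry exact 95% intervals, which cover counting error only.

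The genes named are, in each list, up to 4 called members by size of change or, with fewer than 2, up to 3 members with the smallest p, then the 12 largest increases and 12 largest decreases among called genes of the same direction in all 3 pairs with more than 3 counts in the lower group, the 4 called genes of each direction with the highest CPM, 10 genes the study discusses (such as PR1 and RAB18), and the 3 with the smallest p for the difference. Further list members are named to complete a list, and MCM4, NAS1, FT, WYR and RD29B were added after their values were seen. The comparison, its lists and the motifs were chosen with earlier results of these data known. On simulated counts for the ABA comparison (200 changed genes), 1.5%, 86.5% and 99.5% of changes of 1, 2 and 3 on the log2 scale were called. A change of 1 lies on the fold threshold itself. The simulation held no replicate or length effects and changed only genes with a mean of at least 1 CPM, so these shares do not cover genes below that. Names came from RefSeq's TAIR10.1 annotation, which matched 31912 of 32678 IDs. Alternatives were DESeq2 1.42.0, limma 3.58.1 with voom, other scalings, filters and thresholds, a length and GC correction, and leaving out libraries.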

Additional observations from a re-analysis of the deposited data

How the results depend on the processing

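Against 573 genes called higher and 673 lower in young leaves under ABA with edgeR, DESeq2 called 2521 and 1522, limma with voom 1470 and 1113, voom with Storey q-values 2605 and 1748, a fit of the ABA-treated libraries alone 2166 and 1091, and an adjusted p below 0.05 gave 2826 and 1832. No filter on low counts gave 932 higher and 850 lower. Scaling by library size alone, under which the median over all genes lay at 0.25 on the log2 scale, gave 96 and 125, and the length and GC correction with the replicate block gave 265 and 378. Without the replicate block 6 and 6 genes were called, and under mock 23 and 76. Leaving out 1 replicate or library left 0 to 347 genes called higher and 0 to 278 lower. The ends of these ranges were reached without replicate 1 or replicate 3 (smallest adjusted p 0.0138 and 0.0165 in edgeR, with 7240 and 5698 genes at an unadjusted p below 0.05), without replicate 2 (347 higher) and without old ABA replicate 1 (278 lower). Such fits assume that the remaining libraries vary like the others, and the cause was not tested.

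Under mock, against 1246 higher and 1482 lower, DESeq2 called 2571 higher, voom with Storey q-values 2703 and 2240, an adjusted p below 0.05 gave 3050 and 2323, the length and GC correction 806 higher and library size alone 601 lower. Leaving out a replicate from all groups left 0 to 129 higher and 0 to 271 lower, and leaving out single ABA-treated libraries, with all mock libraries kept, 730 to 1267 higher and 1121 to 1574 lower. For the difference of the age effects, with 0 calls in edgeR (1358 genes at an unadjusted p below 0.05), DESeq2 called 29 positive and 6 negative and library size alone 1. The correlation of 0.813 across genes was 0.59 without a filter on low counts, and between 0.591 and 0.828 when replicates or libraries were left out, lowest without replicate 2.

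Of 3245 values of 136 named genes over 24 alternatives, 2472 kept direction and side of the threshold, 629 lost the threshold, 114 gained it and 30 changed sign. None of the 68 called among them changed sign in these alternatives. With the length and GC correction the sign changed for GI (-0.12), LHCB1.3 (0.30), ANAC019 (0.14), FDH (-0.0526), LTP2 (0.0736), PYK10 (-0.0399), ATML1 (-1.01), CESA6 (-0.52) and RAB18 (0.0936). With library size alone it changed for LHCB1.3 (0.0388), ANAC019 (0.0155) and NPR1 (0.12). Over the fits that left out replicates or libraries, values ran from -0.69 to 0.0918 for ABI1, from -1.17 to 0.33 for ANAC002, from -0.78 to 0.92 for ANAC019, from -0.76 to 0.23 for ANAC032, from -0.78 to 0.39 for ANAC072, from -0.44 to 0.13 for LHCB1.3, from -0.29 to 0.0316 for NPR1, from -0.40 to 0.73 for PR2 and from -0.45 to 0.46 for PYK10. Low depth limits SPCH, MUTE, SDD1 and the defensin genes, whose counts in old leaves were 3 or fewer.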
